A study of Mus musculus with 4 samples.

Results

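A set of 9 genes of prostaglandin synthesis, transport and breakdown (Ptgs1, Ptgs2, Ptges, Ptges2, Ptges3, Slco2a1, Hpgd, Ptgr1 and Ptgr2) were followed in Hepa1-6 cells, a mouse hepatoma line, after knockdown of the chromatin remodeler Chd1. They were taken as a named list, 9 of the 23521 genes of the expression table, and all 9 were found in it. The list was chosen by the RPKM difference of Slco2a1 and Ptgr1 between these same libraries, which was already known, and filled up with other genes of the pathway, so the fold changes of the 9 genes are given as a description and no p-value is attached to them. The Chd1KD group (n = 2 libraries) received lentivirus with an shRNA against Chd1, and the Control group (n = 2 libraries) received lentivirus with a scrambled shRNA. Both groups were grown in DMEM with serum, selected in 4 μg/ml puromycin for 3 weeks, and used as poly(A)-selected RNA. The labels name neither clones nor separate transductions, so the spread between the 2 libraries of a group may be technical.

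Prostaglandins are short-range lipid signals made from arachidonic acid, which phospholipases free from membranes. The cyclooxygenases Ptgs1 and Ptgs2 convert it to prostaglandin H2, and terminal synthases turn that into the individual prostanoids, prostaglandin E2 among them. Signalling ends when the transporter Slco2a1 carries prostaglandins into cells, the dehydrogenase Hpgd oxidises them, and the reductases Ptgr1 and Ptgr2 saturate the resulting keto forms.

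Expression was given as RPKM, in which reads are scaled to transcript length and to the mapped reads of the library, summed over the RefSeq transcripts of a gene. Summed RPKM over all rows ranged from 459381 to 466950 in the Chd1KD libraries and from 462332 to 484490 in the Control libraries, and read depth is unknown. Chd1, the targeted gene, had 10.4 and 11.3 RPKM in the Chd1KD libraries, against 21.4 and 22.5 RPKM in the Control libraries. The hepatocyte and hepatoma markers Alb, Afp, Apob, Hnf4a, Krt8 and Krt18 each had a mean of at least 1 RPKM, whereas the hepatocyte gene Apoa1 stayed under 1 RPKM and Ttr and Serpina1a were listed at 0 in all 4 libraries. Some of these markers separated the groups. The hepatocyte and hepatoma list summed to 1020 to 1046 RPKM in the Chd1KD libraries and 1115 to 1181 RPKM in the Control libraries, most of it Krt18 and Krt8. Krt18, a simple-epithelium keratin, had 620.9 and 621.7 RPKM in the Chd1KD libraries, against 743.0 and 737.6 RPKM in the Control libraries. Hnf4a, a hepatocyte transcription factor, had 35.5 and 40.7 RPKM in the Chd1KD libraries, against 46.4 and 50.9 RPKM in the Control libraries. Afp, alpha-fetoprotein, had 55.2 and 58.3 RPKM in the Chd1KD libraries, against 29.9 and 39.7 RPKM in the Control libraries. The part of such differences in the results below was not tested. Among markers of other liver cell types, 8 of 9 matched macrophage genes, 8 of 8 endothelial genes, 7 of 8 fibroblast and stellate genes and 8 of 8 lymphocyte genes had a mean under 1 RPKM. The exceptions were Cd14 and Dcn. The summed level of the macrophage list was 7.46 RPKM in each Chd1KD library and 7.69 to 8.95 RPKM in the Control libraries, nearly all of it Cd14. That of the endothelial list was 0.041 to 0.12 RPKM in Chd1KD and 0.037 to 0.058 RPKM in Control, and that of the lymphocyte list was 0 to 0.016 RPKM in Chd1KD and 0.051 to 0.069 RPKM in Control. The fibroblast and stellate list summed to 386.2 to 393.8 RPKM in the Chd1KD libraries and 386.04 to 430.4 RPKM in the Control libraries, nearly all of it Dcn. In bulk RNA of this kind, fewer cells that express a gene and less RNA per cell cannot be told apart.

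The sequences before the start sites of Slco2a1, Ptgr1 and Ptgs1 are shown. These 3 genes had the largest fold changes of the 7 that averaged 1 RPKM or more. The sequences are the 250 bases before the start site that the RefSeq promoter table gives each gene. They run 5′ to 3′ on the strand of the gene, on GRCm38.p6, the assembly behind mm10. All 9 genes matched that table. The gene spans given further on come from a RefSeq gene table that covers every transcript of a gene, with starts further upstream for these 3 genes, so these sequences lie wholly (Slco2a1 and Ptgs1) or partly (Ptgr1) inside the spans. Slco2a1 is read from chr9:103008237-103008486 on the plus strand, Ptgr1 from chr4:58987079-58987328 on the minus strand, and Ptgs1 from chr2:36230176-36230425 on the plus strand. Capitals mark matches to the motifs named below.
Slco2a1: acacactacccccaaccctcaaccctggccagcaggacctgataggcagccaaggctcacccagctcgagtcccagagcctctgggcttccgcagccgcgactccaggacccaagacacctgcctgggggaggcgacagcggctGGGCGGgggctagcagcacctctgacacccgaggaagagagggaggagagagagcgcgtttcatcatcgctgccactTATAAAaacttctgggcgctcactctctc
Ptgr1: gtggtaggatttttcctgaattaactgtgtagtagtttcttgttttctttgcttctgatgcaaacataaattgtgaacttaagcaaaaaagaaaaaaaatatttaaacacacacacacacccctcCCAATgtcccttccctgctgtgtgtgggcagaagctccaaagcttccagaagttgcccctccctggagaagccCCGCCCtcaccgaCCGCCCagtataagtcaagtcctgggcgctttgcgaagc
Ptgs1: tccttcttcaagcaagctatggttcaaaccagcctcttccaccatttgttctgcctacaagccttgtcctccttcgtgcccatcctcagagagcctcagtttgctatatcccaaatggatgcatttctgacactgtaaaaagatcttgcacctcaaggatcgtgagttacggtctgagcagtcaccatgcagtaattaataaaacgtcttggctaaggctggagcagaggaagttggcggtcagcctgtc

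A total of 7 motifs were searched on both strands as exact letters, and no matches overlapped each other. The Slco2a1 sequence held a TATA box (TATAAA) that begins 29 bases before the start and a GC box (GGGCGG) that begins 106 bases before it. The Ptgr1 sequence held 2 GC boxes, read on the opposite strand and beginning 52 and 39 bases before the start, and a CCAAT box (CCAAT) that begins 125 bases before it. The Ptgs1 sequence held no match to any of the 7 motifs. Over 32851 RefSeq sequences of the same length, 32.7% held a GC box, 33.8% a CCAAT box and 12.4% a TATA box. The core of the antioxidant response element, TGACNNNGC, was present in 10.2% of them and in none of the 9 genes. The E-box CACGTG (6.02% of all sequences) was found in Ptges2, and the cyclic AMP response element TGACGTCA (1.55%) and the AP-1 site TGACTCA (4.46%) in none of the 9. Of the 9 genes, 6 held a GC box (Slco2a1, Ptgr1, Ptges, Ptges3, Ptgs2 and Hpgd). The base composition of the sequences differed widely. Ptges3 had 73.2% G and C and 38 CpG dinucleotides, Slco2a1 had 63.2% and 12, Ptgs1 had 48.0% and 5, and Ptgr1 had 46.4% and 5, against medians of 52.4% and 6 over all sequences. These matches describe the letters only.

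**Figure D1:**
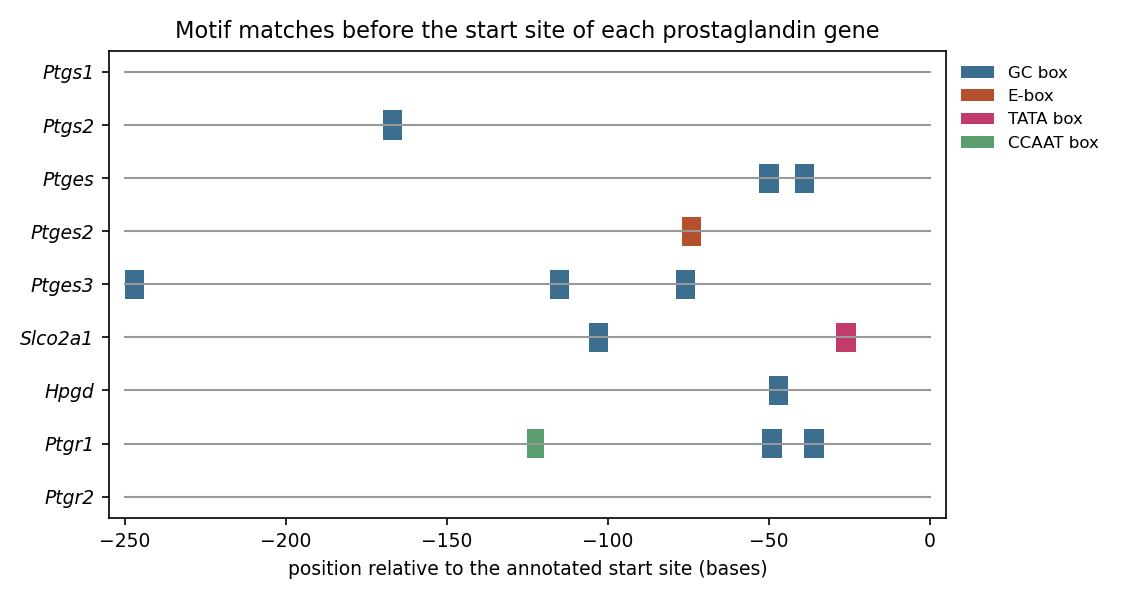
Positions of motif matches (coloured boxes, to scale) in the 250 bases before the annotated start site of each of the 9 genes; the horizontal axis is the distance from the start site in bases, and motifs with no match in any gene are not drawn. GC boxes occur in 6 of the 9 genes, the TATA box is in Slco2a1, the CCAAT box is in Ptgr1, and Ptgs1 and Ptgr2 hold no match.

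The 9 genes lay far apart in level, which RPKM allows to be compared because it is per length. The order of mean RPKM over the 4 libraries was Ptges3 (151.04), Ptgr1 (18.8), Slco2a1 (17.3), Ptges2 (9.99), Ptgr2 (7.26), Ptgs1 (3.16), Ptges (1.53), Hpgd (0.057) and Ptgs2, which was listed at 0 in every library. Ptges3 stood above 95.4% of the 10209 tested genes (those averaging 1 RPKM or more), and Ptges above 4.36% of them. The ranges over the libraries did not overlap between neighbours in this order, except between Ptgr1 and Slco2a1 and between Ptgs1 and Ptges. In both of those pairs the order depended on the group. Ptgr1 stood above Slco2a1 in both Chd1KD libraries and below it in both Control libraries, with a within-library ratio of Ptgr1 to Slco2a1 of 1.69 and 1.66 in Chd1KD and 0.705 and 0.6998 in Control. The list was chosen by the group difference of Slco2a1 and Ptgr1, so a ratio that separates the groups follows from that choice. Nothing is read from that separation. Ptgs1 was below Ptges in the Chd1KD libraries, at 0.944 and 0.878 times its level, and above it in the Control libraries, at 4.33 and 2.74 times its level. A ratio within a library does not depend on how that library was scaled.

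Of the 9 genes, 7 reached a mean of 1 RPKM and entered the fit of all 10209 such genes (limma on log2(RPKM + 1), call at a Benjamini-Hochberg adjusted p under 0.05). Of these 7, Ptgr1 was called higher and Slco2a1 was called lower in Chd1KD. Over all tested genes 0.46% were called in either direction, 0.274% higher and 0.186% lower. These calls belong to the values by which the list was chosen, and nothing is read from their share. The Chd1KD libraries both lay above, or both below, the Control libraries for 5 of the 7 (2 higher, 3 lower). Such a separation was seen for 51.8% of all tested genes, 21.3% higher and 30.5% lower, and again nothing is read from the members' share. The median log2 fold change of the 7 was -0.03, and that of all tested genes was -0.02.

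**Figure D2:**
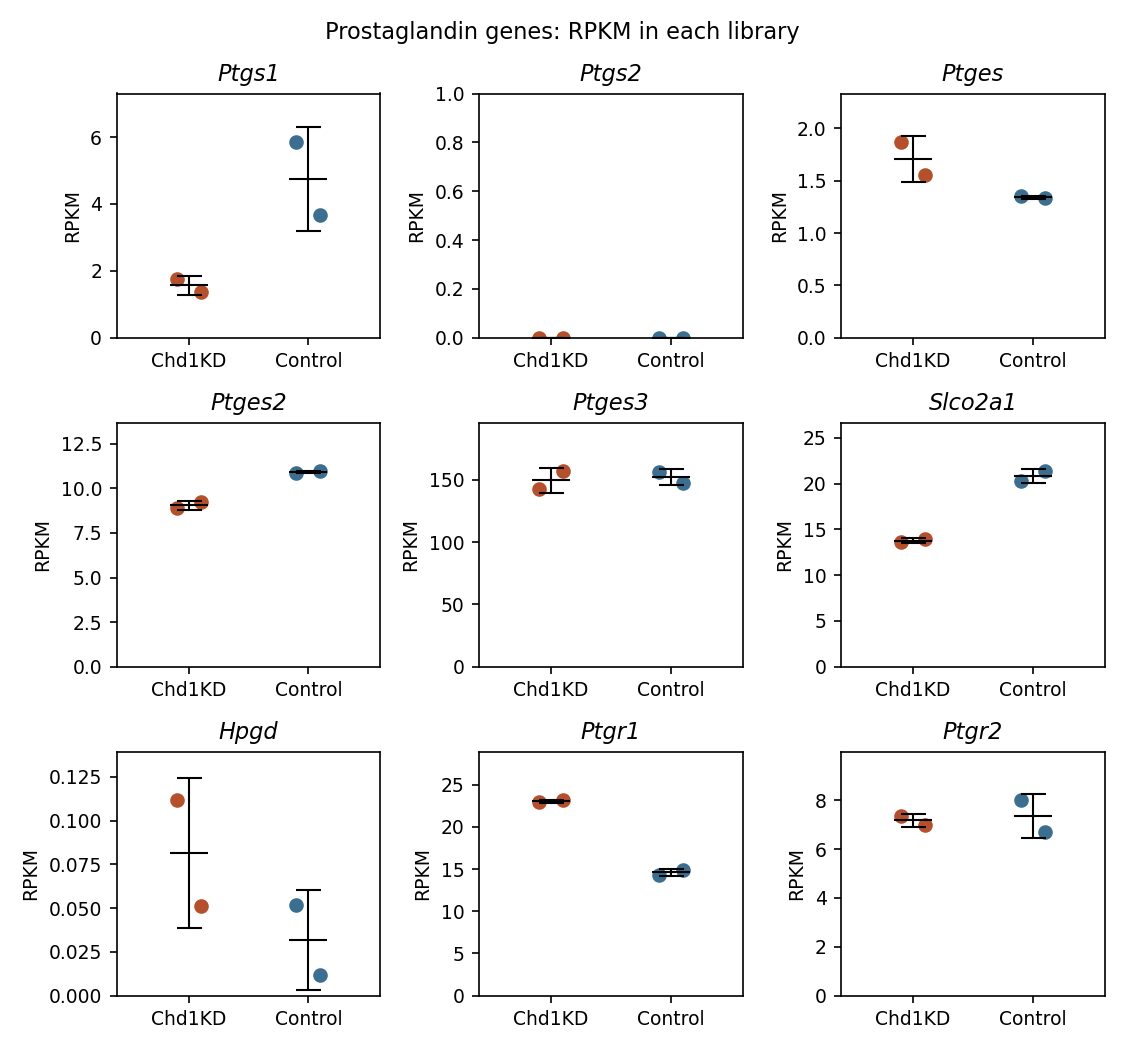
RPKM of each of the 9 genes (vertical axes, linear from 0, scaled per gene) in the 2 Chd1KD libraries (left) and the 2 Control libraries (right); points are libraries, the long bar is the mean and the whiskers are ± 1 SD. Slco2a1, Ptgs1 and Ptges2 are lower and Ptgr1 and Ptges higher in both Chd1KD libraries than in both Control libraries, and Ptgs2 is listed at 0 throughout.

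The cyclooxygenase step had the largest fold change among the tested genes of the list. Ptgs1, the constitutive cyclooxygenase known as COX-1, had 1.76 and 1.36 RPKM in the Chd1KD libraries, against 5.84 and 3.66 RPKM in the Control libraries. All Chd1KD values lay below all Control values, and the Control libraries differed from each other by more than the Chd1KD libraries did. The means were 1.56 ± 0.28 RPKM in Chd1KD and 4.75 ± 1.54 RPKM in Control (SD, n = 2 each), a ratio of 0.329. Its log2 fold change of -1.14 (SE 0.18) was larger in size than that of 99.8% of tested genes but was not past the threshold of the fit. On the log2(RPKM + 1) scale the gap between the 2 Control libraries was 0.55, and the differences of the 4 pairs of a Chd1KD and a Control library ran from -1.53 to -0.75. With any single library left out, its log2 fold change ran from -1.42 to -0.87. The gene passed with the replicate number as a block, a setting that called 325 of all tested genes in place of 47. It also passed at an adjusted p under 0.1, where 205 were called. The fits with 1 library left out are taken up in the last paragraph. The gene spans 36216742 to 36258593 of chromosome 2 (mm10), and the table gives it 1 transcript, NM_008969. Ptgs2, the inducible cyclooxygenase known as COX-2, was listed at 0 in all 4 libraries. A listed 0 does not by itself show absence here, because 10 of the 7705 genes averaging 5 RPKM or more were themselves at 0 in some of the libraries.

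The 3 genes named prostaglandin E synthases differed in level and in direction. Ptges, the glutathione-dependent membrane synthase that is inducible by inflammatory signals in many cells, had 1.87 and 1.55 RPKM in the Chd1KD libraries, against 1.35 and 1.33 RPKM in the Control libraries. Its libraries did not overlap between the groups, and the log2 fold change of 0.21 (SE 0.11) was not called. Ptges2, a membrane-associated protein described as a prostaglandin E synthase, had 8.89 and 9.24 RPKM in the Chd1KD libraries, against 10.9 and 11.0 RPKM in the Control libraries. The groups did not overlap and lay further apart than the libraries within either group, with a ratio of means of 0.83 and a log2 fold change of -0.24 (SE 0.07), which was not called. Within each library Ptges2 was the more abundant of these 2 genes, at 4.76 and 5.94 times Ptges in Chd1KD and 8.06 and 8.22 times Ptges in Control. Ptges3 is better known as p23, a co-chaperone of HSP90, and had 142.8 and 156.95 RPKM in the Chd1KD libraries, against 156.7 and 147.7 RPKM in the Control libraries. Its groups overlapped, its log2 fold change was -0.02 (SE 0.07), and the sign turned under quantile normalization and without Chd1KD replicate 1 or Control replicate 1. Ptges, from 30889471 to 30931020, and Ptges2, from 32395890 to 32402740, lie on chromosome 2 (mm10), as Ptgs1 does.

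At the uptake step, Slco2a1 was lower after Chd1 knockdown. This carrier of the organic anion transporter family brings prostaglandins into cells. It had 13.6 and 13.9 RPKM in the Chd1KD libraries, against 20.2 and 21.3 RPKM in the Control libraries. The gaps on the log2(RPKM + 1) scale were 0.035 within Chd1KD and 0.072 within Control. Pairwise differences between the groups ran from -0.62 to -0.51. The list was chosen by this group difference, so nothing is read from the separation. The means were 13.8 ± 0.26 RPKM in Chd1KD and 20.8 ± 0.77 RPKM in Control (SD, n = 2 each), giving a log2 fold change of -0.56 (SE 0.06). The call was lost without the filter on low values, without a variance trend, and when each gene was read from its most abundant transcript. None of these settings changed the values of Slco2a1 itself. Slco2a1 spans 103007061 to 103096002 of chromosome 9 (mm10), has the single transcript NM_033314 in the table, and overlaps 4 annotated noncoding genes, 3 of them on the opposite strand. Ptgs1 and Ptgr2 each overlap a noncoding or unclassified gene on the opposite strand, Hpgd overlaps an unclassified gene on its own strand, and Ptges overlaps a processed pseudogene on its own strand. These are overlaps of whole gene spans, introns included, and shared exons were not examined. Whether reads were counted by strand is not stated. Whether any reads given to these 5 genes came from the overlapping genes was not tested.

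At the reduction step, Ptgr1 was higher and Ptgr2 was not separated between the groups. Ptgr1 reduces keto prostaglandins and also acts on leukotriene B4, and it is known to be inducible through the antioxidant factor NRF2. It had 22.9 and 23.2 RPKM in the Chd1KD libraries, against 14.3 and 14.9 RPKM in the Control libraries. Gaps on the log2(RPKM + 1) scale were 0.014 within Chd1KD and 0.061 within Control, and the 4 pairs between the groups differed by 0.59 to 0.66. As for Slco2a1, the list was chosen by this group difference, and nothing is read from the separation. The means were 23.03 ± 0.17 RPKM in Chd1KD and 14.6 ± 0.47 RPKM in Control (SD, n = 2 each), giving a log2 fold change of 0.62 (SE 0.06). The call was lost without the filter on low values and without a variance trend. Ptgr1 spans 58965590 to 58987131 of chromosome 4 (mm10), has the single transcript NM_025968 in the table, and overlaps no other GENCODE M21 gene.

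Ptgr2, the related reductase that acts on the keto form of prostaglandin E2, had 7.36 and 6.98 RPKM in the Chd1KD libraries, against 7.99 and 6.70 RPKM in the Control libraries. The groups overlapped, and the log2 fold change was -0.03 (SE 0.09), with a sign that turned with the most abundant transcript and without Chd1KD replicate 2 or Control replicate 1. Ptgr2 was the only one of the 9 genes with more than 1 transcript in the table. NM_029880 carried 85.7% and 90.6% of its RPKM in the Chd1KD libraries and 84.8% and 80.3% in the Control libraries. The share of NM_001252625 was 6.86% and 2.68% in Chd1KD and 8.01% and 10.9% in Control, and that of NM_001252626 was 7.46% and 6.67% in Chd1KD and 7.18% and 8.80% in Control. The isoform shares rest on the authors' assignment of reads to transcripts and were not tested. Within each library Ptgr1 exceeded Ptgr2, by 3.11 and 3.32 times in Chd1KD and by 1.79 and 2.23 times in Control. Hpgd, the dehydrogenase that precedes both reductases in the pathway, was close to 0, with 0.11 and 0.051 RPKM in the Chd1KD libraries and 0.052 and 0.012 RPKM in the Control libraries. These values overlapped, and at such a level no fold change is given.

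**Figure D3:**
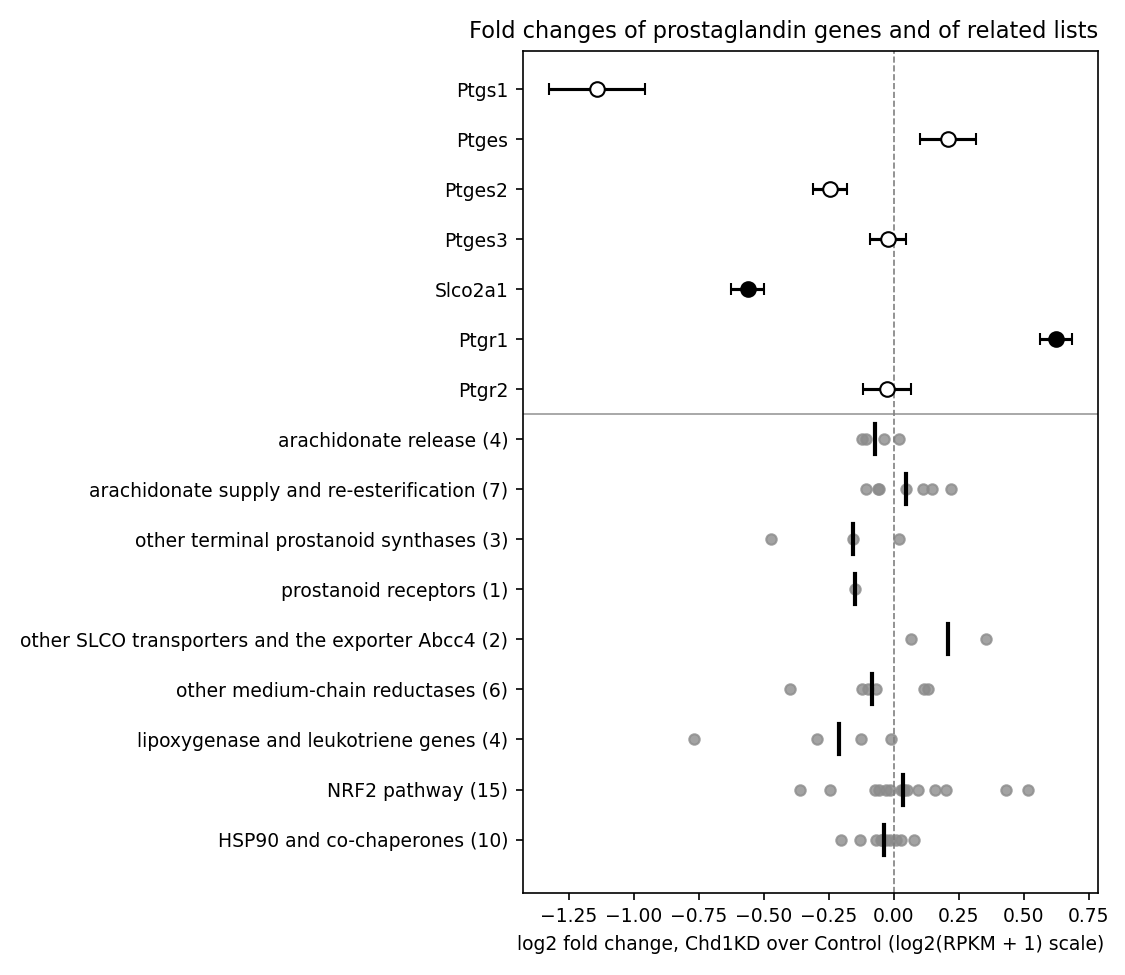
Log2 fold changes, Chd1KD over Control, on the log2(RPKM + 1) scale. Above the grey line are the 7 tested prostaglandin genes with ± 1 SE (filled, past the threshold of the fit of all genes; open, not past it); below it, each grey point is a tested gene of a related list, the black bar is the list median and the number in parentheses is the count of tested genes. Ptgs1 at -1.14, Slco2a1 at -0.56 and Ptgr1 at 0.62 stand furthest from 0 among the 7.

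The rest of the prostanoid pathway and its neighbours were covered by 9 lists with 95 entries, of which 94 were matched and 52 averaged 1 RPKM or more. None of the 52 passed over all genes (limma, adjusted p under 0.05), and 10 had an unadjusted p under 0.05, against 18.5% of all tested genes. Both Chd1KD libraries lay above both Control libraries for 9 of the 52 and below them for 16, beside 21.3% and 30.5% of all tested genes, and the median log2 fold change was -0.03, beside -0.02 over all tested genes. With 0.46% of all tested genes called, an absence of calls among 52 genes or in any list of them is near the background and is no result about those genes.

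Few receptors of prostanoids were detected. Of 9 receptor genes, Ptger1, a receptor of prostaglandin E2, was the only one to reach a mean of 1 RPKM, and 7 were listed at 0 in every library. Ptger1 had 3.36 and 3.54 RPKM in the Chd1KD libraries, against 4.37 and 3.54 RPKM in the Control libraries (limma, adjusted p = 0.48). Of the 9 other terminal synthases 3 were tested. Hpgds, the glutathione-dependent prostaglandin D synthase, had 3.22 and 4.01 RPKM in the Chd1KD libraries, against 5.51 and 5.27 RPKM in the Control libraries, a ratio of 0.672 (limma, adjusted p = 0.104). The groups did not overlap. Akr1b3, an aldose reductase with prostaglandin F synthase activity, and the carbonyl reductase Cbr1 overlapped between the groups, with log2 fold changes of -0.16 and 0.02. The thromboxane synthase Tbxas1 and the prostaglandin D synthase Ptgds were listed at 0.

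Arachidonic acid is released by phospholipases and returned to membranes by acyl-CoA synthetases and acyltransferases. The 4 tested genes of arachidonate release all overlapped between the groups, with Pla2g6, a calcium-independent phospholipase, at 7.39 and 7.94 RPKM in the Chd1KD libraries and 7.59 and 9.31 RPKM in the Control libraries. Pla2g4a, the cytosolic phospholipase best known for releasing arachidonic acid, had 0.30 and 0.17 RPKM in the Chd1KD libraries and 0.23 and 0.17 RPKM in the Control libraries. Of the 7 tested genes of arachidonate supply and re-esterification, Acsl4, which activates arachidonic acid for return to membranes, had 16.96 and 16.8 RPKM in the Chd1KD libraries and 13.3 and 15.5 RPKM in the Control libraries (log2 fold change 0.22, limma, adjusted p = 0.23). The fold change was 0.12 without Control replicate 1 and 0.05 when read from the most abundant transcript.

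Relatives of the transporter and of the reductases were read beside them. Of 12 matched genes for other SLCO carriers and the prostanoid exporter Abcc4, 2 reached a mean of 1 RPKM, both with overlapping groups. Abcc4 had 18.8 and 19.4 RPKM in the Chd1KD libraries, against 17.5 and 18.9 RPKM in the Control libraries, and Slco1a5 had 8.53 and 6.10 RPKM in the Chd1KD libraries, against 6.96 and 4.18 RPKM in the Control libraries. No other listed SLCO gene had a higher RPKM than Slco2a1, although 5 of the genes were listed at 0 in every library, which does not show absence. Of 6 tested medium-chain reductases outside the prostaglandin list, 4 were lower and 2 higher in both Chd1KD libraries, beside 30.5% lower and 21.3% higher of all tested genes. Cryz, the quinone reductase zeta-crystallin, had 10.8 and 11.2 RPKM in the Chd1KD libraries, against 15.04 and 14.6 RPKM in the Control libraries (log2 fold change -0.40, SE 0.06; limma, adjusted p = 0.065). It passed with a mean of at least 5 RPKM as the filter, with a robust variance trend, with the replicate block, without Control replicate 2, and at an adjusted p under 0.1. Vat1 had 75.2 and 78.98 RPKM in the Chd1KD libraries and 70.9 and 69.6 RPKM in the Control libraries (limma, adjusted p = 0.28).

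In the lipoxygenase and leukotriene list, whose pathways also start from arachidonic acid, 4 of 13 genes were tested. Each had a log2 fold change below 0, the median being -0.21, beside -0.02 over all tested genes. Both Chd1KD libraries lay below both Control libraries for 3 of the 4, beside 30.5% of all tested genes. Ephx2, at -0.01 (SE 0.12), overlapped between the groups. Nothing is read from these counts. Mgst3 and Mgst2 are membrane glutathione transferases that can form leukotriene C4. Mgst3 had 20.4 and 27.6 RPKM in the Chd1KD libraries, against 33.4 and 50.6 RPKM in the Control libraries (limma, adjusted p = 0.14), and Mgst2 had 37.3 and 34.5 RPKM in the Chd1KD libraries, against 45.4 and 42.96 RPKM in the Control libraries (limma, adjusted p = 0.11). Both were lower in each Chd1KD library than in each Control library, and neither passed. The lipoxygenases Alox5, Alox12 and Alox15 were listed at 0 in all libraries.

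The NRF2 list, read beside Ptgr1, held no gene past the threshold among 15 tested. There were 4 at an unadjusted p under 0.05 (limma), beside 18.5% of all tested genes, and a median log2 fold change of 0.04. Of the 15 log2 fold changes, 9 were positive and 6 negative. Both Chd1KD libraries lay above both Control libraries for 4 of the 15 and below them for 3. Over all tested genes these shares were 21.3% and 30.5%, and nothing is read from the counts. Txnrd1 had 97.3 and 87.7 RPKM in the Chd1KD libraries, against 86.9 and 78.5 RPKM in the Control libraries (limma, adjusted p = 0.32). Keap1 had 11.6 and 11.0 RPKM in the Chd1KD libraries, against 13.7 and 13.3 RPKM in the Control libraries. The cystine carrier Slc7a11 had 8.61 and 10.4 RPKM in the Chd1KD libraries, against 6.08 and 7.49 RPKM in the Control libraries (limma, adjusted p = 0.15). Gsr, glutathione reductase, had 37.5 and 40.4 RPKM in the Chd1KD libraries, against 50.7 and 49.8 RPKM in the Control libraries (limma, adjusted p = 0.076). The value of Hmox1, heme oxygenase, turned on Control replicate 2, with 38.4 and 34.7 RPKM in the Chd1KD libraries, against 36.1 and 17.6 RPKM in the Control libraries. Its log2 fold change of 0.52 became 0.019 without that library and 1.01, past the threshold, without Control replicate 1. Nqo1, a widely used NRF2 target, had 2.06 and 2.46 RPKM in the Chd1KD libraries and 2.61 and 2.06 RPKM in the Control libraries. The HSP90 list, read beside Ptges3, likewise held no gene past the threshold among 10 tested, with 1 at an unadjusted p under 0.05 (limma), beside the same 18.5%. Hsp90ab1 had 1341 and 1385 RPKM in the Chd1KD libraries, against 1604 and 1529 RPKM in the Control libraries (limma, adjusted p = 0.18). The ratio of Ptges3 to Hsp90aa1 within a library was 0.295 and 0.322 in Chd1KD and 0.316 and 0.346 in Control.

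**Figure D4:**
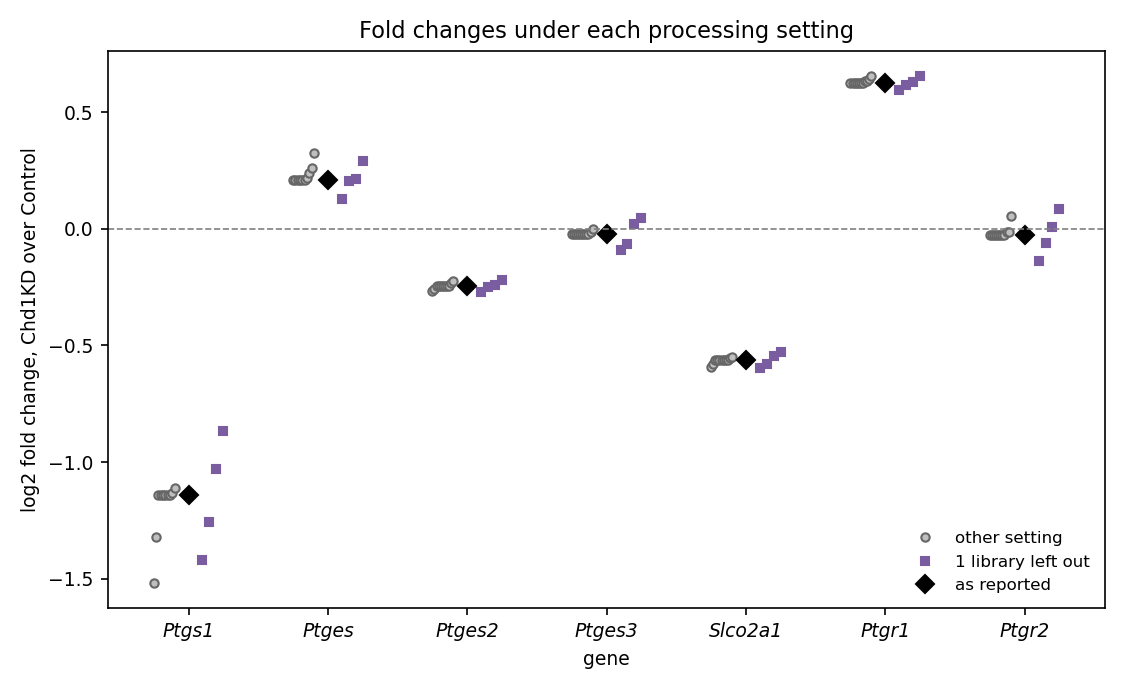
Log2 fold change, Chd1KD over Control (vertical axis), of the 7 tested prostaglandin genes as reported (black diamonds), with 1 library left out (violet squares) and under the other processing settings (grey circles). Slco2a1, Ptgr1, Ptgs1, Ptges and Ptges2 keep their sign in every setting run, but their libraries do not overlap between the groups. Only the scaling settings could have turned those signs. Ptgs1 spans the widest range, from -1.52 to -0.87, and Ptges3 and Ptgr2 cross 0.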

How the data were processed

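RNA of 4 Hepa1-6 libraries was measured, 2 per group, grouped by sample title. The authors deposited RPKM values for 30582 RefSeq transcript rows, per the file headers. TopHat 1.4.1 and Cufflinks 1.3.0 appear, with mm10, in the submitters' processing notes. Which annotation release was used, and whether reads were counted by strand or filtered, is not given in the sources used here. Each single-library file repeated its column of the series table. Symbols came from NCBI's GRCm38.p6 gene table (30003 rows) and GENCODE M21 (a further 180), and RPKM was summed per gene (23521 genes). RPKM values hold no counts, so no count model, counting interval or floor is given.

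Genes averaging 1 RPKM or more were fitted on log2(RPKM + 1) by limma 3.58.1 (R 4.3.3), with a variance trend and no covariate, and p-values were adjusted by Benjamini-Hochberg over all 10209 tested genes. Fold changes on this scale understate those of low genes. With 2 libraries a group, the smallest two-sided p of an exact permutation test is 0.333, and none was run.

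The 9 genes and all lists were chosen with earlier results of these data known. Set to be named beside the 9 were Chd1 and, per list, genes past the threshold, else up to 3 with the largest fold change and 2 with the highest RPKM. Not all of these are printed. Pla2g4a, Nqo1, Keap1, Ephx2, Tbxas1, Ptgds, Alox5, Alox12, Alox15, Cd14, Dcn, Krt18, Hnf4a, Afp, Alb and Apoa1 were named after their values were seen. Slco6b1 and Cd68 were not matched. No genes were ranked by likeness of pattern, since 4 libraries give too few points. Alternatives covered the pseudocount, filter, scaling, variance model, replicate block, transcript choice, threshold and each library left out.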

Additional observations from a re-analysis of the deposited data

How the results depend on the processing

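Across 15 alternatives the fold changes of Slco2a1 and Ptgr1 kept their direction, from -0.60 to -0.53 and from 0.59 to 0.65. Slco2a1 and Ptgr1 were past the threshold in 12 and 13 of the alternatives. The list was chosen by the difference of these 2 genes in these same libraries, so nothing is read from how often they passed. Their libraries do not overlap between the groups, and each gene has 1 transcript. Only the scaling settings could therefore have turned a sign, and a threshold of 0.1 could not lose a call. Without a filter on low values Slco2a1 (-0.56), Ptgr1 (0.62) and Chd1 (-0.96) lost their calls, 0 genes were called (limma, adjusted p under 0.05), and 0 of the prostaglandin genes passed. Without a variance trend Slco2a1 (-0.56) and Ptgr1 (0.62) lost theirs, with 6 genes called and 0 prostaglandin genes passing. With the most abundant transcript Slco2a1 (-0.56) lost its call, 12 genes were called, 1 prostaglandin gene passed, and Ptgr2 turned to 0.055. Slco2a1 has 1 transcript, so its own values did not change in that setting, and its call changed with the refit of the other genes. Which part of that refit mattered was not tested. Ptges3 turned to 0.00066 under quantile normalization. The count of 47 called genes became 71 with a mean of at least 5 RPKM, 92 with a robust trend and 205 at an adjusted p under 0.1. Pathway-list calls were then 1 (Cryz), 1 (Cryz) and 2 (Cryz and Gsr), against 0.

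The replicate numbers carry no stated pairing; deviations of same-numbered libraries correlated at 0.22 across genes. With the replicate block 325 genes were called, 5 of them in the pathway lists (Cryz, Mgst2, Mgst3, Slc7a11 and Gsr), and Ptgs1 (-1.14) passed, as it did at an adjusted p under 0.1 (-1.14).

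With 1 library left out, 49 to 236 genes were called (49 without Chd1KD replicate 1, 122 without Chd1KD replicate 2, 140 without Control replicate 1, 236 without Control replicate 2), with 0 to 2 in the pathway lists (Hpgds and Mgst3 without Chd1KD replicate 2, Mgst3 and Hmox1 without Control replicate 1, Cryz and Gsr without Control replicate 2), and Ptgs1 passed each time (-1.42 to -0.87). Ptgr2 ran from -0.14 to 0.086 and Ptges3 from -0.090 to 0.045. Other genes that changed sign were Akr1b3 (-0.35 to 0.040), Cbr1 (-0.14 to 0.17), Hsp90aa1 (-0.028 to 0.19), Me1 (-0.026 to 0.13), Pla2g12a (-0.21 to 0.0013), Pla2g15 (-0.077 to 0.0057) and Pla2g6 (-0.25 to 0.012). A fit of 3 libraries assumes that the lone library varies like the other group. Read depth is unknown, which limits what can be said of genes under 1 RPKM.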
